A study of Drosophila melanogaster with 4 samples.

Results

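The sarcomere protein genes Mhc, Mlc1, Mlc2, Tm1, Tm2, sls, Zasp52, wupA and up were examined for histone H3 lysine 27 marks in nuclei sorted as neuroblasts. They are 9 of 13922 protein-coding genes of Drosophila melanogaster on X, 4 and the arms 2L, 2R, 3L and 3R. The genes were chosen by name, and every deposited peak that overlapped the gene span or lay within 5 kb of it was taken. That gave 6 H3K27me3 peaks in the control, 30 in the Cut knockdown, 51 H3K27ac peaks in the control against 52 in the knockdown.

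The sarcomere is the contractile unit of muscle. Myosin thick filaments pull on actin thin filaments, tropomyosin and the troponin complex set when they may do so, and Z-disc proteins anchor the thin filaments. Neuroblasts are neural stem cells and build no sarcomeres, so peaks at these genes were examined as a possible measure of nuclei from outside the nervous system in the sort. H3K27me3 is the mark of Polycomb repression, and H3K27ac marks active promoters and enhancers.

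Embryos had been collected for a period of 16 h at 25 °C. Their nuclei carried UAS-dsRed under wor-gal4, a driver active in the nervous system, and were sorted for dsRed. Per the labels, 0.5 to 3% of embryonic nuclei were sorted and at least 50% of them were dsRed positive by microscopy, so other nuclei may make up the remainder. The genotypes are labelled Control and Cut_KD, in which RNA interference was directed at Cut, a homeodomain transcription factor. Which driver expressed the interfering RNA, and what the control embryos carried in its place, are not stated in the labels. Each mark in each genotype was measured in 1 library, so the genotypes are compared without replicates and without p-values. In a mixed sort, more nuclei of a type and more mark per nucleus cannot be told apart. One catalogue number stands for both antibodies in the labels, and which antibody it belongs to was not tested. The lists held 4238 (H3K27me3, control), 18692 (H3K27me3, knockdown), 25941 (H3K27ac, control) and 25519 (H3K27ac, knockdown) peaks, made from an unknown number of reads. A longer list gives more and longer peaks at any gene, so counts of genes with a peak are set beside the share of all genes that have one.

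Neuroblast genes, with a median span of 3.69 kb against 2.16 kb over all genes, were checked first. Of 12 such genes, 10 (83.3%) carried an H3K27ac peak on the span in the control against 11 (91.7%) in the knockdown, where the shares of all genes were 73.8% and 70.2%. H3K27me3 lay on 3 and 9 of them, against 11.0% and 61.6% of all genes, and covered 7.45 kb in the control against 67.1 kb in the knockdown. Among them, wor, after which the driver is named, had 59.1% of its span under H3K27ac in the control against 43.6% in the knockdown, and none and 63.0% under H3K27me3. The shares of mira, which encodes an adaptor for fate determinants, were 34.5% and 72.2% for H3K27ac, and none and 49.5% for H3K27me3. The achaete-scute gene l(1)sc had no peak of either mark on its span, and ase and dpn were low in H3K27ac in at least 1 genotype (none and 19.4% for ase, 15.9% and 1.30% for dpn).

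In the control, H3K27ac lay on more of the sarcomere gene spans than H3K27me3 did, as it did over all genes. The control H3K27ac list was also the longer, covering 22.2 Mb against 4.68 Mb for control H3K27me3. H3K27ac peaks lay on the span of 7 of the 9 members (all but Mlc1 and up) and covered 36.1 kb of the 215 kb of span. The share was 73.8% of all genes, and 92.1% of the 5024 genes with spans between the shortest and the longest member. On Tm2 and wupA the only such peak was 156 and 283 bp wide. H3K27me3 peaks lay on the span of 4 members (Mlc2, Tm1, sls and Zasp52), against 11.0% of all genes, and covered 3.85 kb. In the knockdown, H3K27ac lay on 6 spans over 20.1 kb and H3K27me3 on 5 spans over 28.1 kb, against 70.2% and 61.6% of all genes with a peak. The length under H3K27me3 was 7.30 times that of the control on these spans and that under H3K27ac 0.558 times, while over all protein-coding genes the ratios were 6.16 and 0.688. Both ratios thus lay on the same side of 1 at the members and across genes at large. For H3K27ac, sls and Zasp52 had 27.9 kb in the control against 12.7 kb in the knockdown. The other 7 members had 8.14 against 7.41 kb. The track plot shows each peak.

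**Figure D1:**
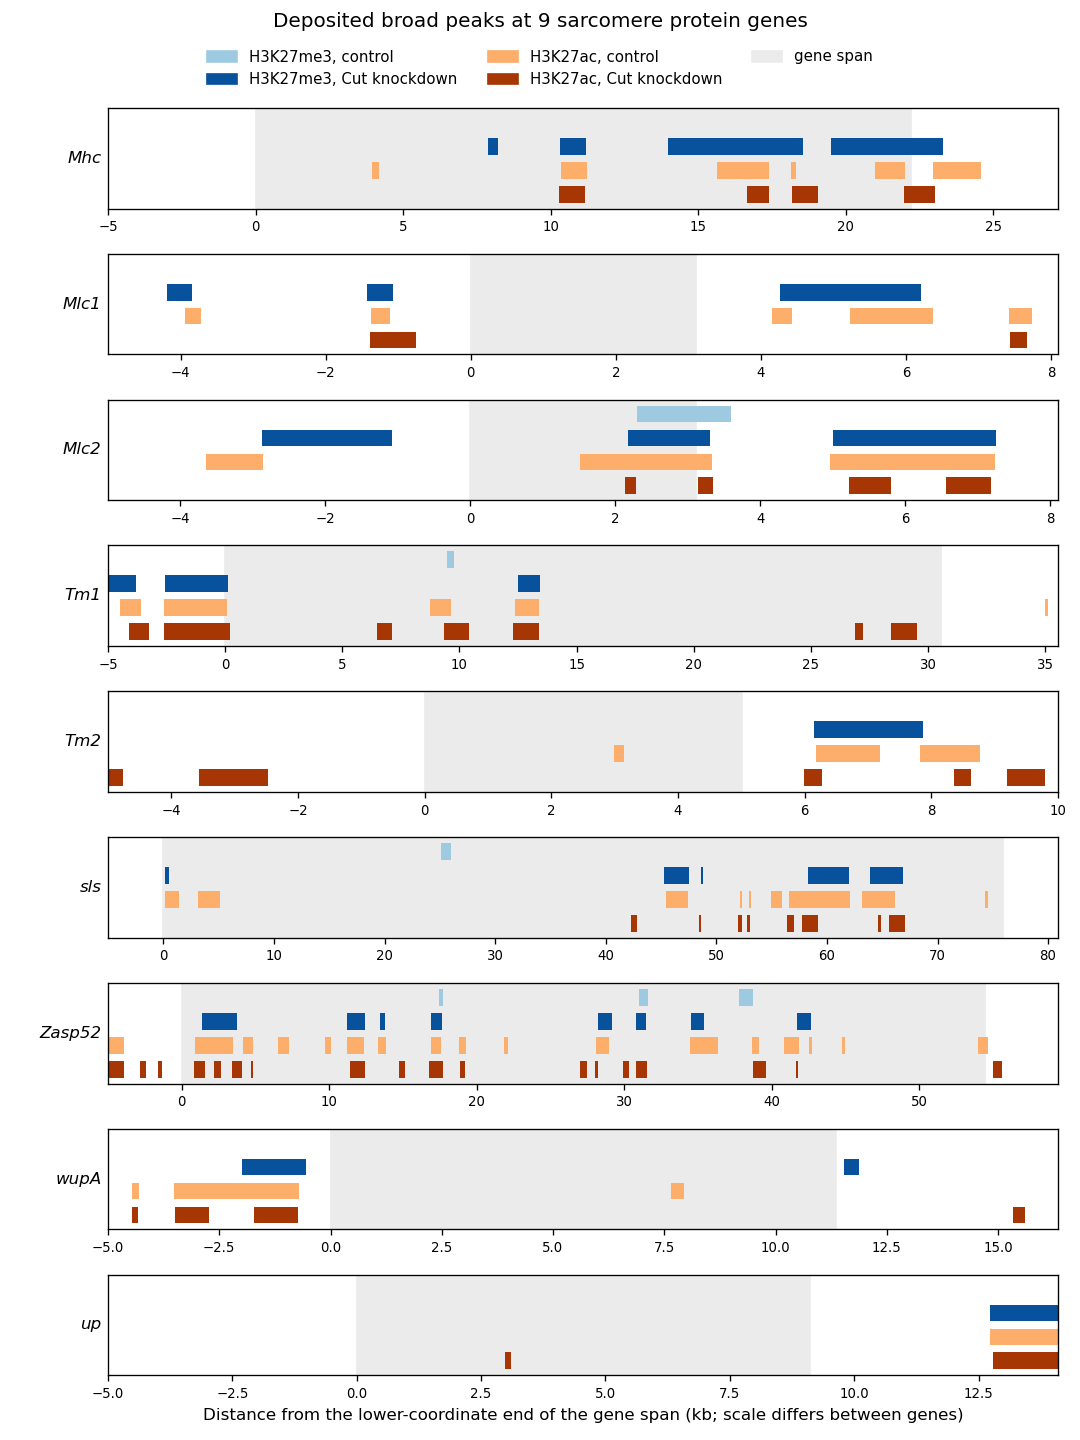
Peaks of the 4 libraries at each of the 9 genes, drawn by distance in kb from the lower-coordinate end of the gene span (grey), which need not be the transcription start; peaks are clipped at 5 kb outside the span, and each colour is 1 library. The spans of Mlc1, Tm2, wupA and up hold no H3K27me3 peak in either genotype, while Zasp52 has the most peaks of any member in each list.

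The thick filament genes differed among themselves. Mhc, which encodes muscle myosin heavy chain (2L:16766566-16788766, 22.2 kb), had no H3K27me3 peak in the control and 8.47 kb of its span covered in the knockdown, the largest covered share of any member for that mark (38.1%). It had 4.07 kb under H3K27ac in the control against 2.72 kb in the knockdown. The 4 knockdown H3K27me3 peaks lay from 7.88 to 23.3 kb along the gene, and the widest (2L:16780556-16785120) spanned 4.57 kb at a fold enrichment of 1.87. Fold enrichments over background are the authors' deposited values throughout. Of those 4 peaks, 3 overlapped H3K27ac peaks of both genotypes, and the short one at 2L:16774442-16774796 overlapped none. The peak at 2L:16786076-16789849 ran past the gene into Cyt-b5-r and had the highest fold of any H3K27me3 peak at the members in the knockdown (2.20, rank 1553 of 18692).

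Mlc1, the gene of the essential myosin light chain (3R:27657078-27660177, 3.10 kb), had no peak of either mark on its span in any of the 4 libraries. Its flanks held 2.24 kb under H3K27ac in the control against 0.861 kb in the knockdown, and 2.66 kb under H3K27me3 in the knockdown only. All but a control H3K27ac peak of 275 bp lay on the neighbours tau, RpS10a and unc80. The peaks within 5 kb of Mlc1 were therefore almost all on other genes, and tau and unc80 are genes known from neurons.

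Mlc2, the gene of the regulatory light chain (3R:30171438-30174551, 3.11 kb), carried both marks on its span in both genotypes. Its control H3K27me3 peak (3R:30173732-30175039) covered 0.820 kb of the span, or 26.3%, and the knockdown peak at the same place (3R:30173608-30174751) covered 0.944 kb, or 30.3%. Both were low in their lists by fold, at 1.71 (rank 3800 of 4238) and 1.80 (rank 14523 of 18692). H3K27ac covered 1.61 kb of the span in the control, or 51.6%, and 0.145 kb in the knockdown, or 4.66%. The fold of the H3K27ac peak on the span was 1.91 in the control (rank 14264 of 25941). In the knockdown it was 2.20 (rank 9719 of 25519), so the fold did not fall with the length. Mlc2 was the only member with at least 50% of its span under any mark, against 22.8% of all genes for control H3K27ac. The control peak of H3K27ac (3R:30172946-30174777) overlapped the control H3K27me3 peak over 1.05 kb.

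The tropomyosin genes Tm1 and Tm2 lie next to each other, 1.41 kb apart on 3R, and their 5 kb flanks overlap, so 3 of the H3K27ac peaks fall within 5 kb of both. Tm1 (3R:15278220-15308779, 30.6 kb), which also gives non-muscle tropomyosins, had more H3K27ac on its span in the knockdown, at 2.02 kb in the control against 4.42 kb in the knockdown, a direction shared by no other member but up. Knockdown H3K27ac peaks at 26.9 to 27.2 kb and at 28.4 to 29.5 kb along the gene had no control peak. The knockdown H3K27ac peak with the highest fold on a member's span (2.67, 3R:15290491-15291601) lay in Tm1 over the nested gene CG45218, and the control peak there had a fold of 2.06. H3K27me3 lay on 0.308 kb of Tm1 in the control and, at different places, on 1.07 kb in the knockdown. The knockdown peaks lay on MRG15 and its neighbours at the lower end of Tm1 or on CG45218.

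Tm2 (3R:15310193-15315197, 5.01 kb) had no H3K27me3 on its span. Its only peak on the span was of H3K27ac in the control, 156 bp wide with a fold of 1.83. A knockdown H3K27me3 peak of 1.72 kb lay beyond its end, over CG14866. Thus the 2 tropomyosin genes differed in cover although they are neighbours: 14.5% of Tm1 and none of Tm2 lay under H3K27ac in the knockdown.

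The troponin genes were nearly bare of both marks. wupA, the gene of troponin I (X:18105568-18116922, 11.4 kb), had 0.283 kb under H3K27ac in the control against none in the knockdown. up, the gene of troponin T (X:13593474-13602578, 9.11 kb), had none in the control against 0.125 kb in the knockdown. Neither had H3K27me3 on its span. Near wupA the H3K27ac peaks lay mostly on Taf8, CG7135 and Mvb12. The Mvb12 peak there had a fold of 2.55 in the control (rank 176 of 25941) and 2.83 in the knockdown (rank 707 of 25519), the highest in both H3K27ac lists within 5 kb of a member. Near up, the H3K27ac peaks of both genotypes and the knockdown H3K27me3 peak all lay on CG11178.

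The Z-disc genes are the longest members and carried most of the cover on the spans. sls, the gene of the titin-like protein Sallimus (3L:2039681-2115611, 75.9 kb), had 15.3 kb under control H3K27ac against 5.10 kb under knockdown H3K27ac. Its H3K27me3 length was 0.914 kb (control) against 9.47 kb (knockdown). The control H3K27ac list had a peak of 5.51 kb (3L:2096271-2101780) and another of 2.97 kb (3L:2102864-2105830) in the upper part of the gene. In the knockdown these places held H3K27ac peaks of 1.43 kb or less, and H3K27me3 peaks of 3.68 and 3.01 kb. Of the 5 knockdown H3K27me3 peaks on sls, 4 overlapped control H3K27ac, and 95.6% of their bases lay in H3K27ac peaks of either genotype, but 25.5% in those of the knockdown. The single control H3K27me3 peak (3L:2064753-2065666) lay apart from all of them and had a fold of 1.58, rank 4148 of 4238 in its list.

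Zasp52, which encodes a PDZ and LIM domain protein of the Z-disc (2R:15762565-15817004, 54.4 kb), had the most peaks of any member in each list. There were 17 H3K27ac peaks within 5 kb in the control against 18 in the knockdown, covering 12.6 and 7.63 kb of the span. The H3K27me3 length was 1.81 kb (control) against 8.15 kb (knockdown). The control H3K27me3 peak at 2R:15780041-15780283 ranked 76 of 4238 by fold (2.26), the highest rank among the 6 control H3K27me3 peaks at the members, and overlapped a knockdown peak of fold 2.12. A second control peak, at 2R:15793551-15794186, was also found in the knockdown. The upper part of Zasp52 overlaps the gene tun, and 2 of its 3 control H3K27me3 peaks lay in that overlap. Some of its knockdown H3K27me3 peaks and of its H3K27ac peaks in both genotypes also lay on tun. The H3K27ac difference at Zasp52 within 5 kb was -3.765 kb, and -2.504 kb without peaks that touched another gene.

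**Figure D2:**
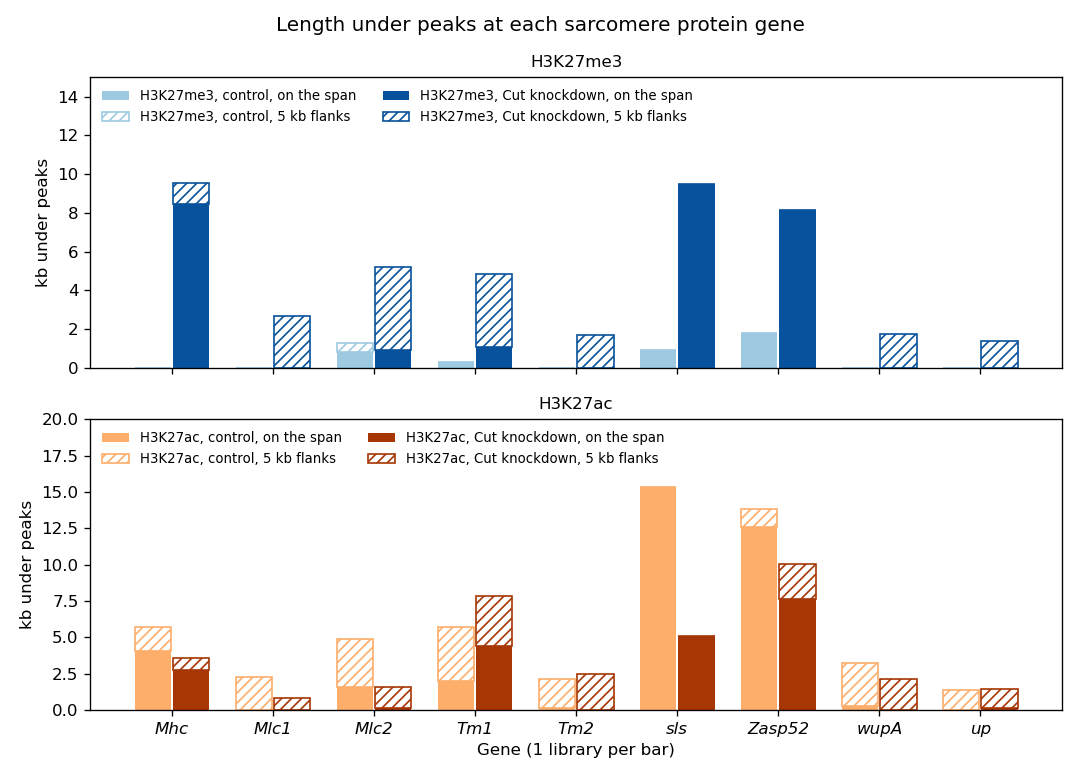
Length under peaks in kb at each of the 9 genes, on the gene span (solid) and in the 5 kb flanks (hatched), with 1 library per bar and no error bar because no library was repeated. For Mlc1, Tm2, wupA and up nearly all cover lies in the flanks, and sls has 15.3 kb of H3K27ac in the control against 5.10 kb in the knockdown.

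Ordered by the share of the span under control H3K27ac, the members ran Mlc2 (51.6%), Zasp52 (23.1%), sls (20.2%), Mhc (18.4%), Tm1 (6.62%), Tm2 (3.12%), wupA (2.49%), and Mlc1 and up (none). In the knockdown the order was Tm1 (14.5%), Zasp52 (14.0%), Mhc (12.3%), sls (6.71%), Mlc2 (4.66%), up (1.37%), and Mlc1, Tm2 and wupA (none). With 1 library a group no spread is known, so neighbours in either order cannot be told apart. Mlc2 and Tm1 moved most between the orders. In the control order the Z-disc genes Zasp52 and sls were adjacent, and the thin filament genes Tm1, Tm2, wupA and up lay toward the low end. The thick filament genes were spread from Mlc2 at the top to Mlc1 at the bottom. In the knockdown order none of these groups stood together.

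The difference between genotypes was taken member by member. H3K27me3 covered more of the span in the knockdown for 5 members and less for none, against 59.7% and 2.69% of all genes. The remaining 4 had none on the span in either genotype. With the flanks, all 9 had more in the knockdown, as did 90.1% of all genes. Only Mhc had H3K27me3 on the span in the knockdown alone, a pattern seen in 51.8% of all genes, and 4 members had it in both genotypes, against 9.73%. A 9-gene count is coarse, and the 4 shared members include the 3 longest, whose spans have more room for a peak. Among the 5024 genes whose spans are between the shortest and longest member, 17.3% had H3K27me3 on the span in both genotypes. H3K27me3 and H3K27ac lay together on the span of 4 members in the control against 5 in the knockdown, against 9.65% and 53.1% of all genes and 17.6% and 78.2% of genes of like length.

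H3K27ac lay on the span in both genotypes for 5 members, against 62.2% of all genes and 85.4% of genes of like length. It covered less of the span in the knockdown for 6 members and more for Tm1 and up, against 54.1% and 27.1% of all genes. Within 5 kb, 6 had less and Tm1, Tm2 and up more, against 74.5% and 24.2%. Summed within 5 kb, H3K27ac at the members came to 54.2 kb (control) against 33.7 kb (knockdown), which is -20.5 kb. H3K27me3 came to 4.34 kb (control) against 44.7 kb (knockdown), which is 40.4 kb more. The ratio of knockdown to control within 5 kb was 10.3 for H3K27me3, against 5.10 around all genes. For H3K27ac it was 0.621, against 0.675. The H3K27me3 ratio rests on the 4.34 kb of the control. sls alone gave 10.2 kb less H3K27ac, at 15.3 and 5.10 kb. Without sls and Zasp52 the H3K27ac difference was -6.55 kb and the H3K27me3 difference 25.5 kb.

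The direction for H3K27ac depended on which peaks were counted. The difference was 0.300 kb for peaks at a -log10 q of 2 or more, 8.85 kb for peaks at a fold of 2 or more, and 0.635 kb when the longer list was trimmed to the length of the shorter. That fold keeps 32.6% of the control peaks but 80.3% of the knockdown peaks, which favours the knockdown, and trimming shortened the control list alone. The H3K27me3 difference stayed positive under those bounds, at 10.6, 10.8 and 4.76 kb, but was -0.025 kb once every H3K27me3 peak touching H3K27ac in any list was removed. That removal took out 5 of the 6 control and 27 of the 30 knockdown H3K27me3 peaks at the members, so little was left to compare. The plot of differences by processing sets the differences together.

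**Figure D3:**
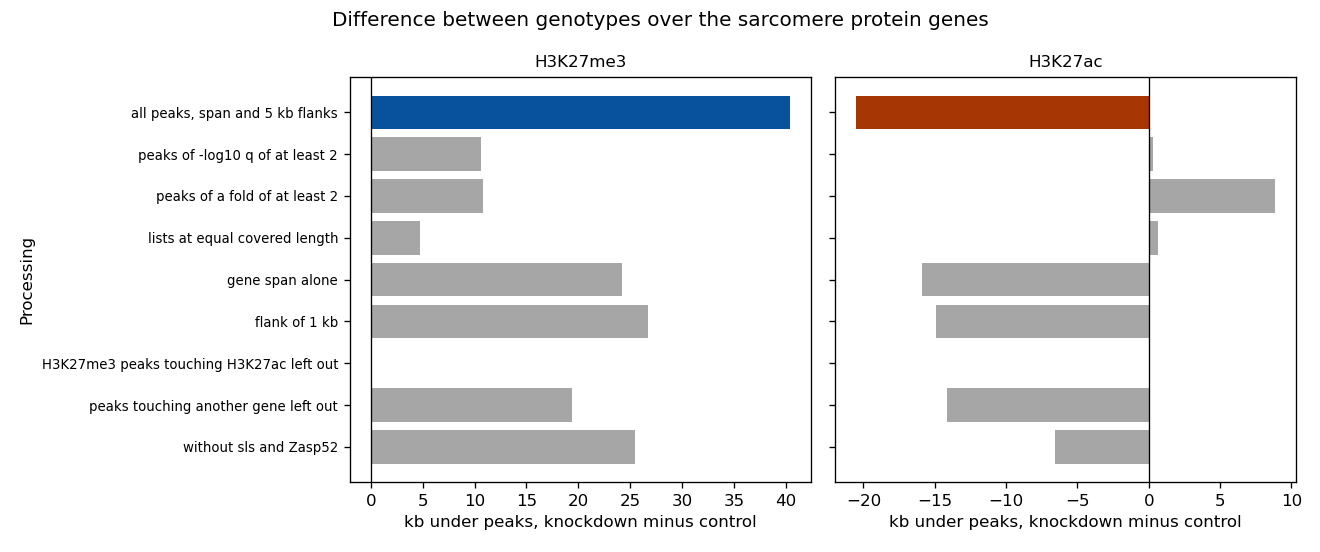
Difference in kb under peaks over the 9 genes, knockdown minus control, for each mark (panels) and each way of choosing peaks or span (rows), with the reported values in colour; the setting that leaves out H3K27me3 peaks was applied to that mark alone. H3K27me3 runs from -0.025 to 40.4 kb and H3K27ac from -20.5 to 8.85 kb. The -0.025 kb rests on the few H3K27me3 peaks that touched no H3K27ac.

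Presence of a peak near a gene was common across the genome. Within 5 kb, all 9 members had H3K27ac in both genotypes and H3K27me3 in the knockdown, against 96.9% (95% exact Clopper-Pearson interval 96.6 to 97.2%), 95.5% (95.2 to 95.9%) and 92.6% (92.2 to 93.1%) of all genes, so these counts are near the background. For control H3K27me3 the count was 4 of 9, against 23.2% (22.5 to 23.9%). On the span alone the counts were 4, 5, 7 and 6 of 9 for control H3K27me3, knockdown H3K27me3, control H3K27ac and knockdown H3K27ac, against 11.0%, 61.6%, 73.8% and 70.2% of all genes. Among the genes of the members' span lengths the shares were 18.4%, 83.2%, 92.1% and 88.7%. Set against genes of like length, the members' share was the higher for control H3K27me3 (44.4%) and the lower for the other 3 libraries (55.6%, 77.8% and 66.7%), on 9 genes. These intervals, and those of at most 0.834 points on either side for the other shares over all genes, cover counting error only.

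By pooled bases of the gene spans the members lay below all genes in each list, but not with the 5 kb flanks. sls and Zasp52 make up 130 kb of the 215 kb of span, so they weigh most in the pooled share. The pooled share of span under peaks was 1.79% and 13.1% for H3K27me3 in the control and the knockdown, against 2.43% and 14.9% over all genes, and 16.8% and 9.37% for H3K27ac, against 19.0% and 13.1%. With the flanks, the members were above all genes for knockdown H3K27me3 (15.1% against 14.5%) and control H3K27ac (18.3% against 17.4%). They were below for control H3K27me3 (1.47% against 2.85%) and knockdown H3K27ac (11.4% against 11.8%). The median member had none and 3.51% under H3K27me3, and 6.62% and 4.66% under H3K27ac. The medians over genes of the members' span lengths were none and 13.8%, and 20.8% and 13.0%. The median member was thus below the median gene of like length in 3 of the 4 libraries, with both at 0 in the other.

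The folds of the peaks at the members were close to those of their lists. Median folds were 1.78, 1.89, 1.94 and 2.14 for control and knockdown H3K27me3 and control and knockdown H3K27ac, against list medians of 1.86, 1.89, 1.93 and 2.13. No peak at a member exceeded a -log10 q of 3.18, while the lists reached 8.16 to 14.4. In width, the H3K27ac peaks at the members had medians of 886 bp in the control against 609.5 bp in the knockdown (lists 625 and 432 bp), and the knockdown H3K27me3 peaks 1171 bp (list 754 bp). The 6 control H3K27me3 peaks were narrower than their list by the median, at 775 bp against 815.5 bp.

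Peaks were compared between genotypes and between marks. Of the 51 control H3K27ac peaks, 31 overlapped a knockdown H3K27ac peak, and of the 52 knockdown peaks 37 did the reverse, against 58.3% and 66.3% of the lists. For H3K27me3, 3 of 6 control and 3 of 30 knockdown peaks were shared, against 59.7% and 13.0%. The shared H3K27me3 places were on Mlc2 and Zasp52. Of the 30 knockdown H3K27me3 peaks, 27 touched an H3K27ac peak of either genotype, against 84.2% of the list, and those that touched none lay in Mhc, in sls and beside wupA. By bases, 77.6% of H3K27me3 within 5 kb of the members lay in H3K27ac peaks of either genotype in the knockdown and 50.0% in the control, against 61.5% and 29.6% around all genes. Against H3K27ac of the same genotype the shares were 38.3% and 31.4% at the members, and 33.7% and 24.6% around all genes. On one histone tail lysine 27 cannot carry both marks at once, and whether different nuclei carried them was not tested.

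Much of what lay within 5 kb belonged to other genes. Of the peaks off the spans, 14 of 15 in the control H3K27ac list, 16 of 18 in the knockdown H3K27ac list and 9 of 10 in the knockdown H3K27me3 list touched a gene that is not a member. On the spans, 28 of 36, 27 of 34 and 13 of 20 peaks of those lists touched no other gene. Leaving out every peak that touched another gene, members with a knockdown H3K27me3 peak numbered 5, and the summed differences were 19.4 kb for H3K27me3 and -14.1 kb for H3K27ac.

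**Figure D4:**
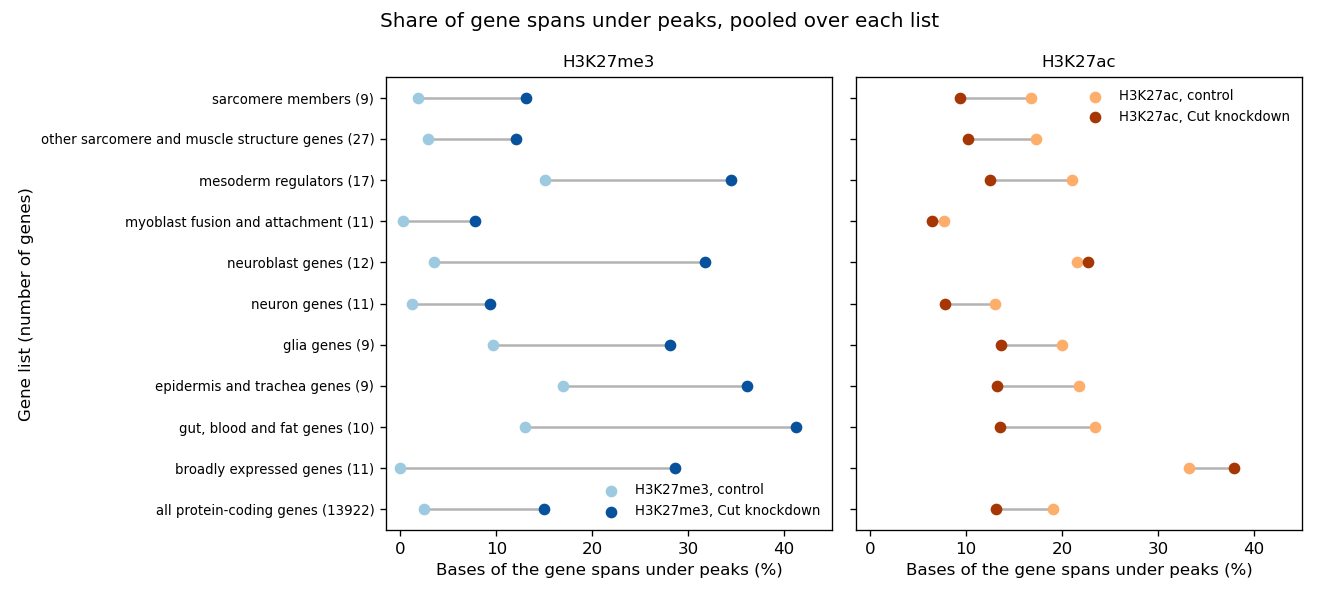
Share of gene span under H3K27me3 (left) and H3K27ac (right) peaks, in percent of bases pooled over each gene list, with 1 point per library and the number of genes in brackets. The sarcomere genes lie at 1.79% and 13.1% for H3K27me3 and at 16.8% and 9.37% for H3K27ac. All genes lie at 2.43% and 14.9% for H3K27me3 and at 19.0% and 13.1% for H3K27ac. The mesoderm regulators stand at 15.1% and 34.4% for H3K27me3.

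The wider muscle program was described with 27 other sarcomere and muscle structure genes. Their median span was 10.8 kb, against 2.16 kb over all genes. H3K27ac lay on 24 of the 27 (88.9%) in the control against 22 (81.5%) in the knockdown. The shares of all genes were 73.8% and 70.2%, and of genes of the sarcomere members' span lengths 92.1% and 88.7%. H3K27ac covered less in the knockdown for 16 and more for 8, against 54.1% and 27.1% of all genes, and the ratio of covered length was 0.593. H3K27me3 lay on 9 (33.3%) in the control against 21 (77.8%) in the knockdown. The shares of all genes were 11.0% and 61.6%, and of genes of those span lengths 18.4% and 83.2%. H3K27me3 covered more in the knockdown for 20 and less for bt, the gene of the giant protein projectin, at 1.91 and 0.398 kb. The troponin C genes TpnC41C and TpnC4, named after their values were seen, had no peak of either mark on the span in any library. TpnC47D, another troponin C gene, had no H3K27me3 in the control and 97.5% of its span covered in the knockdown, with H3K27ac over 47.8% and 4.30%. Act79B, a muscle actin gene, had none and 71.3% under H3K27me3, with H3K27ac over 50.1% and 51.0%. RyR, the ryanodine receptor of calcium release, had none and 30.9% under H3K27me3, and 60.7% and 29.8% under H3K27ac. Act57B, an actin gene of embryonic muscle, had the highest share under control H3K27me3 in the list (16.0%, and 53.8% in the knockdown).

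Regulators of mesoderm had more of their span under control H3K27me3 than the sarcomere genes (15.1% and 1.79% of pooled bases). Of 17 such genes, 10 (58.8%) had H3K27me3 on the span in the control, against 11.0% of all genes, and 5 had at least 50% covered, against none of the 9 sarcomere genes and 2.04% of all genes. bap (100%) and tin (96.4%), homeodomain genes of visceral and cardiac mesoderm, were covered nearly end to end. Their H3K27ac shares were 35.6% and 65.2% in the control and none and 12.6% in the knockdown. Of 11 genes of myoblast fusion and muscle attachment, 1 (sr, 9.09% of the list) had H3K27me3 on its span in the control, against 11.0% of all genes. All 11 had H3K27ac in both genotypes, against 62.2% of all genes and 85.4% of the genes of the sarcomere members' span lengths. The median span of the 11 was 31.2 kb, against 2.16 kb over all genes.

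Other cell types were read the same way, by the ratio of H3K27ac length in the knockdown to that in the control over the spans. It was 0.558 at the sarcomere genes, 0.593 at the other sarcomere and muscle structure genes and 0.593 at mesoderm regulators, but 0.836 at genes of myoblast fusion and attachment. It was 0.600 at neuron genes, 0.605 at epidermis and trachea genes, 0.579 at gut, blood and fat genes and 0.683 at glia genes, against 1.05 at neuroblast genes, 1.14 at broadly expressed genes and 0.688 over all genes. A ratio below 1 at sarcomere genes was thus found also at neuron genes and at markers of several other tissues, while among the muscle lists the fusion and attachment genes lay above the value of all genes. At the sarcomere genes, most of the fall in H3K27ac lay on sls and Zasp52, with 27.9 kb in the control against 12.7 kb in the knockdown. The other 7 members had 8.14 against 7.41 kb, so 0.558 does not describe each sarcomere gene. Long genes weighed on other lists too. Among neuroblast genes, pros had 14.4 kb in the control against 17.1 kb in the knockdown, and brat 6.90 against 9.33 kb. The neuroblast gene grh went the other way, at 11.7 against 8.02 kb. Among fusion and attachment genes, sns had 18.2 against 15.9 kb and kirre 10.4 against 9.13 kb. The span of rst lies inside kirre, so its peaks count in both. The part of cell makeup in the ratios of these lists was not tested. In 8 of 9 other lists more genes had less H3K27ac cover in the knockdown than more, the exception being neuroblast genes with 5 less and 6 more.

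Among the genes of these lists, those most like the median sarcomere gene in covered share, by the summed absolute difference over the 4 libraries, were mew (5.32 points), rst (6.28), if (6.40), kirre (6.56) and Mf (6.82). The neuron gene nrv3, named after its value was seen, followed at 7.31 points. The median profile is low in all 4 libraries, so this ranks genes with little of either mark.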

How the data were processed

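Chromatin of sorted nuclei was cut with 15 U of micrococcal nuclease, sonicated for 3 min and precipitated with 2 µg (H3K27me3) or 1 µg (H3K27ac) of antibody, with input DNA as control, per the labels' protocols. The submitters' processing notes name FastQC, Bowtie2, MACS2, SICER and the build dm6. For versions, roles and the peak threshold nothing is given in the sources used here. Each deposited file is a MACS2 broad peak list of 1 library. The authors' deposited fold is a ratio over background, -log10 p and -log10 q are as deposited, and the deposited score equals 10 times -log10 q without its decimals in 74388 of 74390 peaks. Counts are absent from them, so depth is unknown.

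Starts were made 1-based and peaks on Y set aside (79 to 294 a list). Peaks of a list were merged to measure covered length, and 1 bp of overlap sufficed. Gene spans came from RefSeq's gene table of assembly release 6, which gives neither strand nor transcript starts, so the planned distances from starts were not measured. Of 127 listed symbols 126 matched, 2 through a synonym. Scripts ran in Python 3.11.15 with pandas 2.3.3, numpy 2.4.6 and scipy 1.17.1, and the interval arithmetic was tested on simulated data. Members and lists were chosen with earlier results of these data known. Named were all members, neighbours under their peaks, up to 4 genes of each other list with the most control H3K27me3 share or the largest difference in share, and the 5 genes most alike. Not every gene this rule allows is printed, and wor, mira, ase, dpn, l(1)sc, bt, sr, TpnC41C, TpnC4 and nrv3 were picked beyond it.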

Additional observations from a re-analysis of the deposited data

How the results depend on the processing

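No paired analysis was possible because each group has 1 library. Depth is unknown and the lists differ in length, which limits every covered length, and no error can be given for lengths. Members with a peak (control H3K27me3, knockdown H3K27me3, control H3K27ac, knockdown H3K27ac) numbered 4, 9, 9 and 9. At a -log10 q of 2 or more they numbered 2, 5, 5 and 5, with 0.551, 11.2, 7.91 and 8.21 kb covered. Differences, knockdown minus control, were then 10.6 kb (H3K27me3) and 0.300 kb (H3K27ac), with Mlc2 at 0.578, Tm2 at -0.348 and wupA at 1.02 kb for H3K27ac reversed. With a fold of at least 2, members with H3K27me3 numbered 1 and 5, covered lengths were 0.243 and 11.0 kb (H3K27me3) and 17.7 kb (control H3K27ac), and the differences were 10.8 and 8.85 kb, with Mhc (1.03 kb), Mlc2 (1.56), sls (1.97) and Zasp52 (1.00) reversed for H3K27ac. At equal covered length, 5 members had knockdown H3K27me3, lengths were 9.10 kb (knockdown H3K27me3) and 33.1 kb (control H3K27ac), and the differences 4.76 and 0.635 kb. Reversed there were Mlc2 (-1.31 kb) and sls (-0.721 kb) for H3K27me3 and sls (1.73 kb) and Zasp52 (0.243 kb) for H3K27ac. On the span alone, 5 members had knockdown H3K27me3, lengths were 28.1, 36.1 and 20.1 kb (knockdown H3K27me3, control and knockdown H3K27ac), the H3K27me3 difference was 24.3 kb and Tm2 reversed for H3K27ac (-0.156 kb). With a flank of 1 kb the H3K27me3 difference was 26.8 kb, and Mlc2 (-0.164 kb, H3K27me3), Mlc1 (0.244 kb) and Tm2 (-0.142 kb, both H3K27ac) reversed. Without H3K27me3 peaks that touched H3K27ac, which were 5 of 6 control and 27 of 30 knockdown peaks, the difference was -0.025 kb, and -0.721 kb at sls. The following 2 alternatives were chosen after seeing the data. Without peaks that touched another gene, lengths were 2.77, 22.2, 31.2 and 17.1 kb, 5 members had knockdown H3K27me3, its difference was 19.4 kb, and Mlc2 (-0.164 kb) and Tm1 (-0.308 kb) reversed for it. Without sls and Zasp52 the differences were 25.5 and -6.55 kb. The cause of these reversals was not tested.

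The share of H3K27me3 bases inside H3K27ac, 31.4% in the control and 38.3% in the knockdown, was 31.0% and 24.0% with the -log10 q bound, 42.0% and 41.8% with the fold bound, 6.29% and 51.8% at equal length, 29.5% and 33.1% on the span, 37.2% in the knockdown with 1 kb, and 47.6% and 33.5% without peaks on other genes. Its order between genotypes thus depended on the setting. The share of all genes with a peak, in the library order above, was 5.55, 43.0, 54.9 and 61.1% with the -log10 q bound, 4.40, 44.6, 73.1 and 92.8% with the fold bound, 26.6% (knockdown H3K27me3) and 89.3% (control H3K27ac) at equal length, 11.0, 61.6, 73.8 and 70.2% on the span, 13.5, 74.6, 85.5 and 82.1% with 1 kb, and 28.7, 95.8, 98.6 and 97.8% among genes of the members' lengths. Counting a peak only where 50% of it lay in the window left all 4 member counts as they were, and asking for 50% of the shorter peak left 3, 3, 26 and 31 shared peaks. Across the settings, 37 summary values, some of them given above, stayed within 1.5 times or within their interval. A further 66 were counted as moved and 4 reversed in sign. For the share of H3K27me3 bases inside H3K27ac, any change counted as moved.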
